A study of Mus musculus with 12 samples.

Results

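The osteocyte line MLO-Y4 was compared with the osteoblast line 2T3, each grown dense. The comparison took the 3 arrays titled MLO-Y4 OC high and the 3 titled 2T3 OB C0, 6 of the 12 arrays of the series, over all 5030 spots. The 2T3 line came from a mouse carrying the SV-40 T antigen behind the BMP-2 promoter, and MLO-Y4 from a mouse carrying T antigen behind the osteocalcin promoter, so both groups hold cells with a viral oncogene that binds p53 and the retinoblastoma protein. No treatment is given for either group. The labels do not define C0, which was taken to mean confluent 2T3 cells in contrast to the 2T3 low arrays; likewise high was taken to mean MLO-Y4 cells dense enough to form gap junctions. The other 6 arrays hold the same lines at low density (MLO-Y4 low and 2T3 low). Each cell type is represented by 1 line, so a difference between lines and a difference between osteocytes and osteoblasts cannot be told apart. The labels do not say that arrays of a group came from separate cultures, so every p-value here reflects array-to-array spread that may be technical.

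Osteoblasts secrete bone matrix and mineralise it. Osteocytes are former osteoblasts enclosed in that matrix, joined to each other by long processes and gap junctions, and are known for sensing load and for signals that steer osteoblasts and osteoclasts. The MLO-Y4 line is widely used as a model of the early, dendrite-bearing osteocyte. Total RNA was hybridised to arrays that gave 1 value per spot, and a level below is a background-subtracted spot intensity after quantile normalisation, which gives every array the same distribution of values. Values under 6.08 were set to that floor and have no order among themselves. A difference is MLO-Y4 high minus 2T3 C0 on the log2 scale, given with the standard error (SE) of the limma fit, and a call is an adjusted p under 0.05 over all 5030 spots. A spot counted as above the detection limit where its intensity exceeded the size of the lowest value on that array. Where a group was above the limit on no array, its level is only a bound and the fold is written as at least a value.

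Signal differed between the groups before any gene was compared. The 2T3 C0 arrays had 62.4% to 71.5% of spots above the limit, and the MLO-Y4 high arrays 37.9%, 64.5% and 56.4%, with replicate 1 the lowest. Spearman correlations between arrays were 0.66 to 0.88 within 2T3 C0, 0.67 to 0.83 within MLO-Y4 high, and 0.56 to 0.83 between the groups, so the groups overlap on this measure. Control genes printed as 3 spots each had no call on any spot, with mean log2 differences from -0.33 (Rps29) to 0.83 (Sdf4), 0.20 for Actb and 0.78 for Gapdh. With equal medians these means were 0.65 for Rps29, 1.46 for Sdf4, 1.27 for Actb and 2.43 for Gapdh, and with detected-spot scaling -0.12, 0.69, 0.50 and 1.66. The 3 Actb spots differed from each other, from -0.68 to 0.97 on the log2 scale. Differences also moved with place on the array: among spots above the limit on all 6 arrays, the median was -0.30 in the block of spot names starting with N and -0.22 in block P, against 0.25 in blocks B and F. The part of signal and of place on the array in the results below was not tested beyond the scalings and the removal of block medians given beside them.

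Of the 5030 spots, 169 were called (3.36%), 116 higher in MLO-Y4 high (2.31%) and 53 lower (1.05%), and 157 of them carry 1 gene symbol. At an unadjusted p under 0.05 there were 712, where 251.5 would be expected if no spot differed. The arrays of the 2 groups did not overlap for 435 spots higher in MLO-Y4 high (8.65%) and 400 lower (7.95%). All 116 rises and all 53 falls were among these, so lack of overlap is no further support for a call. The largest rises among named genes were in Saa3, Ccl7 and Isg15, and the largest fall was in Sfrp2. The split between directions moved with the scaling: 68.6% of calls were higher after quantile normalisation, 83.5% (116 of 139) after scaling to equal medians and 52.4% (100 of 191) after scaling on the spots above the limit on all 12 arrays. The median difference of the 1514 spots above the limit on all 6 arrays was 0.04, 0.73 and -0.04 under these scalings. In all 3 scalings, 91 spots were called higher and 21 called lower. With the replicate number as a block for the 3 groups in which the numbers paired the arrays, the count rose to 259 (171 higher and 88 lower) and held 168 of the 169. Blocks N and P, with 607 spots, held 2 of the rises and 14 of the 53 falls. With the median of each lettered block removed from each array, 103 of the rises and 39 of the falls were still called. Fitting only these 6 arrays gave 95 calls, 82 of them among the 169. Leaving out 1 array in turn gave 103 to 146 calls, and 65 of the rises and 14 of the falls passed in all 6 of these fits. Below, where several arrays are named as ending a call, each was left out alone. Without the 4 arrays numbered 1, among them the MLO-Y4 high array with the fewest spots above the limit, 56 of the rises and 19 of the falls were still called.

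**Figure D1:**
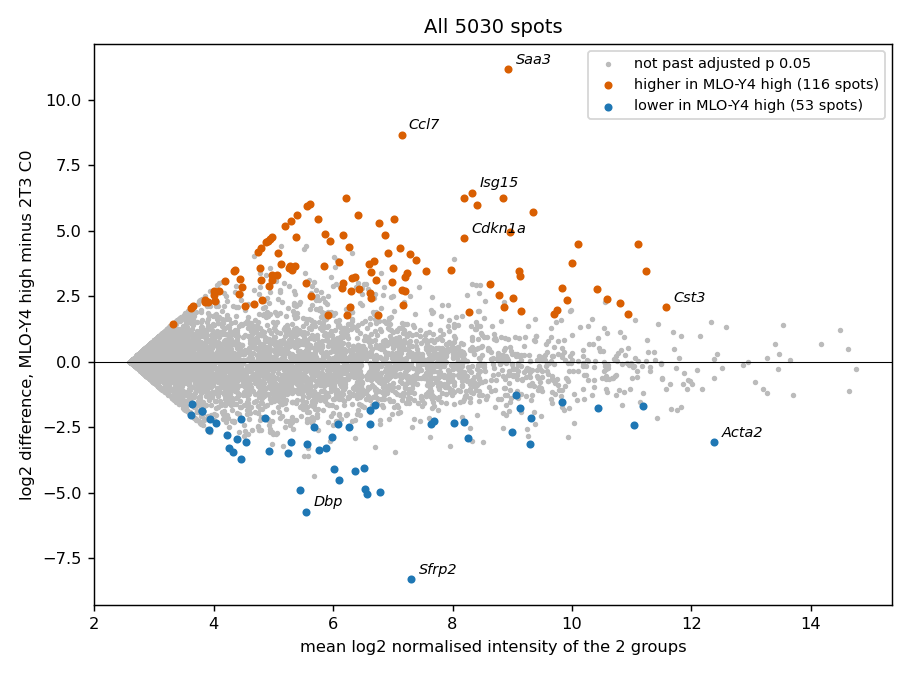
Log2 difference (MLO-Y4 high minus 2T3 C0) against mean log2 normalised intensity of the 2 groups for the 5030 spots, 1 point a spot. Orange points are the 116 spots called higher, blue the 53 called lower; Saa3 lies highest at 11.15 and Sfrp2 lowest at -8.31.

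Markers of the labelled cell types were partly present. All gene lists used here were written with an earlier account of these data known. Their counts and medians therefore describe the lists and are not an independent test. Of 9 osteocyte markers measured, 2 rose and 1 fell, against 3.36% of all spots called in either direction, and their median difference was 1.40 (1.40 to 2.28 over the 3 scalings) against -0.01 over all spots. Ackr3, an atypical receptor that binds the chemokine Cxcl12, read 20.6, 27.5 and 18.5 in 2T3 C0 and 652, 486 and 748 in MLO-Y4 high (log2 difference 4.82, SE 0.36, adjusted p = 7.75e-05). The lowest MLO-Y4 value was many times the highest 2T3 value. Dstn, an actin-severing protein, read 746, 561 and 335 against 3134, 3988 and 3691 (log2 difference 2.79, SE 0.36, adjusted p = 0.00215). Ank, which exports pyrophosphate and so limits mineral growth, moved the other way, at 1399, 1126 and 1399 against 257, 156 and 201 (log2 difference -2.70, SE 0.36, adjusted p = 0.00266). No array of one line crossed into the range of the other for these genes; the Ank call was lost with equal medians (adjusted p = 0.158). Pdpn, the podoplanin that shapes osteocyte processes, read 341, 263 and 106 in 2T3 C0 and 1979, 1707 and 323 in MLO-Y4 high, and MLO-Y4 high replicate 3 lay below the highest 2T3 array. Its difference of 2.28 (SE 0.79) did not pass (adjusted p = 0.187) but passed with the replicate block (adjusted p = 0.0117). The array numbered 3 was the lowest in both lines. Phex, an endopeptidase of phosphate handling, was above the limit on none of the 6 arrays. Gja1, Dmp1, Mepe and Sost were not analysed here.

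Among 14 osteoblast markers measured, none rose and 1 fell, beside 2.31% of all spots called higher and 1.05% called lower, and their median difference was -0.59 (-0.28 to -0.65 over the 3 scalings) against -0.01 over all spots. With the replicate block 2 fell, and where only the 6 arrays were fitted none did. The fall was in Omd, a small keratan sulphate proteoglycan of bone, at 56.6, 25.8 and 35.4 in 2T3 C0 and 6.08, 10.3 and 6.08 in MLO-Y4 high, at least 1.71-fold (adjusted p = 0.0353); the call was lost whichever of the 6 arrays was left out, with adjusted p from 0.0527 to 0.114. Alpl, the phosphatase that frees phosphate for mineral, read 97.8, 42 and 72 against 468, 280.1 and 126 (difference 1.94, SE 1.00, adjusted p = 0.453). Bglap, which encodes osteocalcin and whose promoter drives the MLO-Y4 transgene, read 51.3, 294 and 464 against 19.2, 466 and 101 (difference -0.99, SE 1.40, adjusted p = 0.879). Its arrays spread so widely within each line that the groups overlap. Col1a2, a chain of type I collagen, read 1126, 2772 and 1045 against 222, 659 and 109 and Msx2, a homeobox regulator, 609, 289 and 457 against 6.08, 107 and 95.5; neither difference (-2.56 and -3.45) passed, at adjusted p = 0.139 and 0.0968, although the groups do not overlap for either. With the replicate block Col1a2 passed (adjusted p = 0.0458) and Msx2 did not (adjusted p = 0.0733). Bmp2, whose promoter drives the 2T3 transgene, was above the limit on no array of either group. Col1a1, Spp1 and Runx2 were not analysed here.

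Markers of other cells held 4 calls over 6 lists, beside 3.36% of all spots called in either direction. The summed levels of the muscle and adipocyte lists did not overlap between the lines, each sum resting largely on 1 gene in the line where it was higher. Of 18 macrophage and osteoclast markers, none was called, Csf1r, Ptprc, Fcgr3, Mrc1 and Calcr were above the limit on none of the 6 arrays, and the summed level was 385 to 625 on 2T3 C0 arrays and 378 to 742 on MLO-Y4 high arrays. The list leaves out Cx3cr1, a chemokine receptor of monocytes and macrophages, named after its values were seen. Cx3cr1 was at the floor on all 3 2T3 C0 arrays and read 237, 63.9 and 212 in MLO-Y4 high. It was at least 15.8-fold higher (adjusted p = 0.00422), and the call was lost without the arrays numbered 1 (adjusted p = 0.0977). None of 10 endothelial markers was called, with Cdh5 and Flt1 above the limit on no array and summed levels of 169 to 288 and 258 to 286. Of 12 lymphocyte and red cell markers 1 rose, Ms4a1, the B cell antigen CD20 (41.3, 43.9 and 56.5 against 489, 411 and 564), while Cd22, Cd3e, Gata1 and Hba-a1 were above the limit on no array; the summed level ran from 495 to 3915 and from 930 to 3368. Of 15 chondrocyte markers 1 rose, Sox5, and Acan, Comp and Ihh were above the limit on no array; the summed level ran from 286 to 386 and from 360.0 to 665. The Sox5 call was lost without 2T3 C0 replicates 1, 2 and 3 and MLO-Y4 high replicates 1 and 3, with adjusted p up to 0.084. Of 14 muscle and contractile markers, Acta2 fell, and Ckm, Myh11 and Myog were above the limit on no array. The summed level was 15620 to 22380 in 2T3 C0, mostly that of Acta2, and 5148 to 5809 in MLO-Y4 high. The median difference of this list was 0.28, with 9 members above 0 and 4 below. Of 7 adipocyte markers, Pparg fell, and Cebpa and Plin2 were above the limit on no array; the summed level, mostly that of Scd1, ran from 2225 to 2863 and from 4695 to 5140.

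Chemokines and acute-phase genes held the largest rises. This group holds secreted attractants of leukocytes, interleukins and plasma proteins made in inflammation. Of 43 measured, 12 rose and 1 fell, beside 2.31% of all spots called higher and 1.05% called lower, and the list's median difference was 0.62 (0.04 to 0.78 over the 3 scalings). Without the arrays numbered 1, 8 rose and none fell. Saa3, an acute-phase apolipoprotein, read 29.2, 6.08 and 6.08 in 2T3 C0 and 18933, 39841 and 16874 in MLO-Y4 high (log2 difference 11.15, SE 0.60, adjusted p = 1.09e-05), with 1 of the 2T3 arrays above the limit. Ccl7, a monocyte attractant, read 9.5, 6.08 and 6.08 against 1764, 2472 and 5312, at least 305-fold higher (log2 difference 8.66, SE 0.65, adjusted p = 7.75e-05). Every MLO-Y4 array was bright for both genes, and 2T3 arrays were at the floor or low. Ccl2, which shares the receptor of Ccl7, read 13.9, 30.8 and 87.9 against 1683, 3227 and 3036 (log2 difference 6.25, SE 0.80, adjusted p = 0.00215). Lgals3bp, a secreted glycoprotein that binds galectin-3, read 79.8, 39.8 and 45.6 against 5478, 3598 and 3227 (log2 difference 6.25, SE 0.46, adjusted p = 7.75e-05). Hp, the haemoglobin-binding haptoglobin, was at the floor on all 3 2T3 arrays and read 644, 313 and 249 in MLO-Y4 high, at least 39.5-fold higher (adjusted p = 0.000237). None of these 5 genes had overlapping arrays, and each call held in every fit without 1 array. With 1 array left out, the difference ran from 10.72 (without MLO-Y4 high replicate 2) to 11.87 (without 2T3 C0 replicate 1) for Saa3 and from 5.61 (without 2T3 C0 replicate 1) to 7.02 (without 2T3 C0 replicate 3) for Ccl2.

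The other rises of the list were in cytokines, chemokines and enzymes. Il11, which acts on osteoclast formation and on osteoblasts, read 16.6, 12.6 and 25.3 in 2T3 C0 and 811, 626 and 619.7 in MLO-Y4 high (log2 difference 5.29, SE 0.49, adjusted p = 0.000282). Lif, a cytokine of the same family, was at the floor on every 2T3 array and read 340, 191 and 58.7 in MLO-Y4 high, at least 16.7-fold higher (adjusted p = 0.00492). The Lif call was lost without the arrays numbered 1 (adjusted p = 0.0617). Il6 was at the floor in 2T3 C0 and read 104, 25.8 and 116, at least 7.26-fold higher (adjusted p = 0.0228), with replicate 2 far under the other 2; its call was lost without 2T3 C0 replicates 1, 2 and 3 and MLO-Y4 high replicates 1 and 3, with adjusted p up to 0.0886. Ptgs2, the inducible cyclooxygenase that starts prostaglandin synthesis, read 71, 42.7 and 25.8 against 1777, 3783 and 2988 (log2 difference 5.99, SE 0.89, adjusted p = 0.00503). Cxcl5, a neutrophil attractant, read 108, 242 and 483 against 3899, 5725 and 6243 (log2 difference 4.48, SE 0.60, adjusted p = 0.00266), and Cxcl9, a T cell attractant, was above the limit on no 2T3 array and read 123, 80.3 and 149. The Cxcl9 call was lost without MLO-Y4 high replicate 3, with adjusted p up to 0.0512. Lif, Il6, Cxcl5 and Cxcl9 were named after their values were seen, as was Cfb, a complement factor, which completes the 12 rises at 3.13 (SE 0.58); its call was lost without 2T3 C0 replicates 2 and 3 and MLO-Y4 high replicate 1, with adjusted p up to 0.0707. The 1 fall was Cxcl12, the ligand of Ackr3, at 627, 631 and 596 in 2T3 C0 and 6.08, 127 and 9.92 in MLO-Y4 high (log2 difference -4.97, SE 1.12, adjusted p = 0.0398). The 3 2T3 arrays were close together, and the MLO-Y4 arrays ranged from the floor to 127. The Cxcl12 call was lost without 2T3 C0 replicates 1, 2 and 3 and MLO-Y4 high replicates 1 and 3, with adjusted p up to 0.136, and was lost with equal medians (adjusted p = 0.0754) and with detected-spot scaling (adjusted p = 0.0665). Leaving out 1 array, the difference ran from -6.26 (without MLO-Y4 high replicate 1) to -4.07 (without MLO-Y4 high replicate 2) for Cxcl12, from 4.03 (without MLO-Y4 high replicate 1) to 5.37 (without MLO-Y4 high replicate 3) for Lif and from 3.08 (without MLO-Y4 high replicate 3) to 4.11 (without MLO-Y4 high replicate 2) for Il6.

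**Figure D2:**
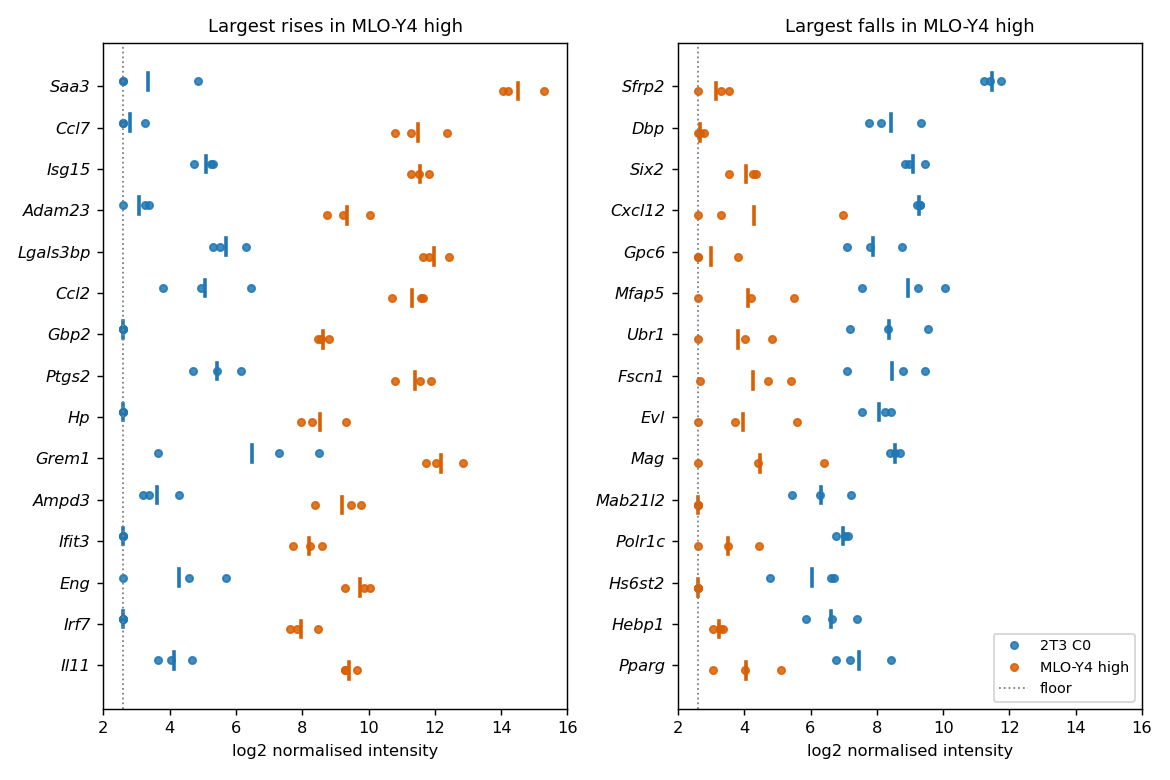
Log2 normalised intensity on each of the 6 arrays for the 15 largest rises (left) and 15 largest falls (right) in MLO-Y4 high; points are arrays (blue 2T3 C0, orange MLO-Y4 high), short bars are group means and the dotted line is the floor at 2.60. Groups without overlap were part of the rule that chose these 30 genes. Gbp2, Hp, Ifit3 and Irf7 sit at the floor on all 3 2T3 C0 arrays.

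Interferon-induced genes held 8 further rises. Interferons are cytokines of antiviral defence, and many genes they induce carry the interferon-stimulated response element (ISRE) near their start; the ISRE core is GAAA, any 2 bases, GAAA. Of 22 measured genes of this list, 8 rose and 1 fell (6 and 0 where only the 6 arrays were fitted). Over all spots 2.31% were called higher and 1.05% lower. Of the 22, 20 had a difference above 0, as had 2442 of all 5030 spots. The median of the list was 1.57 (1.24 to 1.94 over the 3 scalings). Gbp2, a guanylate-binding protein of cell defence, was at the floor on every 2T3 C0 array and read 451, 379.8 and 355 in MLO-Y4 high, at least 42.2-fold higher (log2 difference 6.01, SE 0.29, adjusted p = 7.46e-06). Ifit3, which restrains translation of viral RNA, was also at the floor in 2T3 C0 and read 388, 303 and 212, at least 31.3-fold higher (adjusted p = 0.00012). Irf7, the transcription factor that amplifies type I interferon, showed the same pattern with 353, 199 and 228, at least 27-fold higher (adjusted p = 0.000861). In all 3 genes the 2T3 line gave no signal above the limit on any array. Usp18, the protease that removes the protein Isg15 from its targets, was at the floor in 2T3 C0 and read 268, 277 and 148, at least 23.8-fold higher (adjusted p = 3.67e-05). Isg15 itself, a ubiquitin-like modifier, read 38, 26.8 and 39.8 in 2T3 C0 and 2496, 2946 and 3651 in MLO-Y4 high (log2 difference 6.45, SE 0.97, adjusted p = 0.00525). The remaining rises, named after their values were seen, were Ifit1 (48.5, 6.08 and 6.58 against 434, 381 and 171), Irgm1 (90.1, 47.6 and 19.5 against 759, 1060.2 and 328) and Ifi204 (275, 489 and 155 against 3227, 4314 and 3899). For Ifit1, 1 of the 2T3 arrays was above the limit. The Ifit1 call was lost without 2T3 C0 replicates 2 and 3 and MLO-Y4 high replicate 1, with adjusted p up to 0.0545, and its difference ran from 4.07 (without 2T3 C0 replicate 2) to 5.59 (without 2T3 C0 replicate 1). The Irgm1 call was lost without 2T3 C0 replicates 2 and 3 and MLO-Y4 high replicates 1 and 2, with adjusted p up to 0.0791. Irf8, a factor of blood cell development, fell from 19.5, 22.4 and 43.7 to 6.08, 6.5 and 9.92 (adjusted p = 0.0266). All 3 MLO-Y4 levels of Irf8 were below the limit, so they are only bounds. Its spot lies in block P, and the call was lost with the block medians removed (adjusted p = 0.205). It was also lost with equal medians (adjusted p = 0.0525) and with detected-spot scaling (adjusted p = 0.0591). The Irf8 call was lost without 2T3 C0 replicates 2 and 3 and MLO-Y4 high replicates 1 and 2, with adjusted p up to 0.0836.

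The ISRE core was searched on both strands from 250 bases before to 50 after each gene's start, in RefSeq promoters of build GRCm38.p6. It was present in 3.99% of 27025 genes and in 4.71% of the 3649 measured genes that have an entry. Of the 78 genes called higher that have one, 14 held it (17.9%), and of the 41 called lower, 1 (2.44%). In the interferon list 10 of 17 genes with an entry held it, and 5 of the 6 called higher did. A match is a run of letters and says nothing of what binds there. The 5 promoters follow because they belong to the genes of the list that were called higher and hold the core; each runs 5′ to 3′ on the gene's own strand, stops before the gene's start, and has the matched core in capitals (written as its reverse complement where it lies on the opposite strand).
Gbp2, chr3:142620579-142620638, plus strand: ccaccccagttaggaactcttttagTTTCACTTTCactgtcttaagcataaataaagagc
Ifit1, chr19:34640760-34640838, plus strand: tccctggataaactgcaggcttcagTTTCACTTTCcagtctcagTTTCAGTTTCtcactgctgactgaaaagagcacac
Ifit3, chr19:34583348-34583441, plus strand: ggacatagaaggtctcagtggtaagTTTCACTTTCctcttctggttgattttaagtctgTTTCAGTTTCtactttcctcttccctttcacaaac
Irgm1, chr11:48871421-48871475, minus strand: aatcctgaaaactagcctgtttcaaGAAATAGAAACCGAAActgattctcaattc
Isg15, chr4:156200850-156200921, minus strand: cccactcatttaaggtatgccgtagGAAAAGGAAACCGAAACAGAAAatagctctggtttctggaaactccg
Gbp2 held 1 match, Ifit1, Ifit3 and Irgm1 held 2 and Isg15 held 3, with the first match of each gene 30 (Irgm1) to 156 (Ifit3) bases before its start. The measured rises of these genes were 6.01, 4.61, 5.58, 3.87 and 6.45 on the log2 scale, the first and the third with 2T3 C0 at the floor. Other genes called higher with a match were Saa3, B2m, H2-T23, Psme1, Vegfa, Gstt1, Sgk1, Lgals9 and Gbp2b.

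Genes of class I antigen presentation load peptides on class I molecules at the cell surface and are known targets of interferon. Of 16 measured, 4 rose and none fell, beside 2.31% of all spots called higher and 1.05% called lower. A difference above 0 was found in 15 of the 16 and in 2442 of all 5030 spots. The median of the list was 1.65 (1.23 to 1.92 over the 3 scalings). Tapbp, the tapasin that holds class I molecules at the peptide transporter, read 73.8, 52.2 and 28.9 in 2T3 C0 and 869, 314 and 329 in MLO-Y4 high (log2 difference 3.22, SE 0.52, adjusted p = 0.00731). H2-T23, a non-classical class I molecule, read 21.9, 18.7 and 47.2 against 405, 203 and 198 (log2 difference 3.24, SE 0.54, adjusted p = 0.00829). Neither gene had overlapping groups. Where only the 6 arrays were fitted, none of the 16 genes was called (adjusted p = 0.0808 for Tapbp and 0.0563 for H2-T23), and without the arrays numbered 1, 1 was called (adjusted p = 0.0404 for Tapbp and 0.0612 for H2-T23). B2m, the light chain of class I molecules, read 855, 612 and 1060.2 against 4632, 2170 and 5725 (log2 difference 2.23, SE 0.51, adjusted p = 0.0445), and the call was lost without 2T3 C0 replicates 1, 2 and 3 and MLO-Y4 high replicates 1 and 3, with adjusted p up to 0.142; it was also lost with the block medians removed (adjusted p = 0.0584). Psme1, an activator of the proteasome, read 194, 235 and 258 against 1491, 519.9 and 1109.9 (log2 difference 2.07, SE 0.43, adjusted p = 0.0263), and the call was lost without 2T3 C0 replicates 1, 2 and 3 and MLO-Y4 high replicates 1 and 3, with adjusted p up to 0.0875. In both genes MLO-Y4 high replicate 2 was the lowest of its group and lay above every 2T3 array. Class I, Gbp, Ifit and Saa genes have close relatives, and cross-hybridisation between them was not tested.

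**Figure D3:**
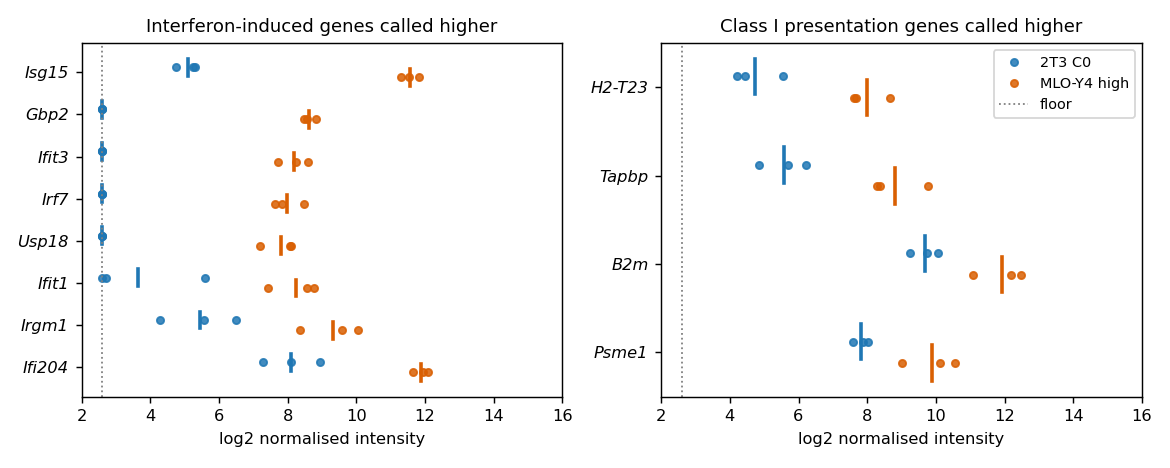
Log2 normalised intensity on each of the 6 arrays for the 8 interferon-induced genes (left) and 4 class I presentation genes (right) called higher in MLO-Y4 high; points are arrays (blue 2T3 C0, orange MLO-Y4 high), bars are group means and the dotted line is the floor. Gbp2, Ifit3, Irf7 and Usp18 lie on the floor on every 2T3 C0 array. No gene shown has overlapping groups, as was so for every call.

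Motifs of inflammatory factors were searched in the same windows. The NF-kappaB motif, by which that factor switches on inflammatory genes, was in 7.07% of measured genes' promoters, in 8 of 78 genes called higher (10.3%) and in 1 of 41 called lower (2.44%), Wnt10b. The AP-1 motif TGANTCA, bound by Fos and Jun proteins, was in 8.61% of measured genes, 14 of the 78 (17.9%) and 4 of the 41 (9.76%). Of the 12 rises of the chemokine and acute-phase list, 7 have an entry, and 1 of these held the NF-kappaB motif, Il6. Il6, 1 of the 8 and named after its values were seen, carries the NF-kappaB letters close to its start, in capitals here, again in build GRCm38.p6.
Il6, chr5:30013045-30013104, plus strand: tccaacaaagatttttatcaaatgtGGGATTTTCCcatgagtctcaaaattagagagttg
Fosl1, a Fos relative of the AP-1 family, was the 1 gene to rise among 25 immediate-early and stress transcription factors, at 972, 988 and 1194 in 2T3 C0 and 4756, 3134 and 3437 in MLO-Y4 high (log2 difference 1.83, SE 0.29, adjusted p = 0.00657), and none fell (2 rose with the replicate block). Its groups are tight and well apart. Over all spots 2.31% were called higher and 1.05% lower. Myc read 57.8, 85.5 and 51 against 249, 159 and 166 and did not pass (adjusted p = 0.0668).

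Growth factors and their modulators held rises and no falls. Of 46 genes of the FGF, IGF, PDGF, EGF and VEGF families, 5 rose and none fell, beside 2.31% of all spots called higher and 1.05% lower, with a median of 0.64 (0.45 to 1.17 over the 3 scalings). With the replicate block 9 rose, where only the 6 arrays were fitted 3, and without the arrays numbered 1, 2. Ereg, an EGF receptor ligand, read 134, 79.8 and 65.7 in 2T3 C0 and 5312, 1553 and 2569.9 in MLO-Y4 high (log2 difference 4.96, SE 0.52, adjusted p = 0.00053). Vegfa, the main driver of vessel growth, read 97.1, 252 and 238 against 1683, 2695 and 1194 (log2 difference 3.29, SE 0.55, adjusted p = 0.00855). Adm, a vasodilator peptide that is induced in low oxygen, read 35.8, 19.2 and 27.7 against 615, 352 and 209 (log2 difference 3.74, SE 0.53, adjusted p = 0.00401). The Adm call was lost without the arrays numbered 1 (adjusted p = 0.0542). The lowest MLO-Y4 array of each gene lay clear of the highest 2T3 array. Pgf, a VEGF relative, read 6.08, 18.7 and 54.5 against 285, 225 and 259 (log2 difference 3.80, SE 0.69, adjusted p = 0.0141), and its call was lost without 2T3 C0 replicate 2 and MLO-Y4 high replicates 1 and 3, with adjusted p up to 0.0566. Its difference ran from 3.00 (without 2T3 C0 replicate 1) to 4.68 (without 2T3 C0 replicate 3). Pdgfa, a platelet-derived growth factor chain named after its values were seen, read 391, 488 and 414 against 1786, 2496 and 2291, and its call was lost whichever of the 6 arrays was left out, with adjusted p from 0.0512 to 0.0791. In the glycolysis and hypoxia list of 20 genes, 3 rose and none fell (1 rose and 1 fell where only the 6 arrays were fitted): Adm and Vegfa, counted in both lists, and Aldoa, a glycolytic enzyme (543, 425 and 380.2 against 1939, 1042 and 1884). Without the arrays numbered 1, none of the 20 was called. The Aldoa call was lost without 2T3 C0 replicates 2 and 3 and MLO-Y4 high replicate 3, with adjusted p up to 0.0613.

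In the BMP, activin and TGF-beta pathway 4 of 45 genes rose and none fell (1 rose where only the 6 arrays were fitted, and 4 rose and 1 fell with the replicate block), beside 2.31% of all spots called higher and 1.05% lower, and the median was 0.24 (0.00 to 0.33 over the 3 scalings). Among ligands, Gdf5, a BMP family member of joint and bone formation, was at the floor on all 2T3 C0 arrays and read 217, 91.1 and 224 in MLO-Y4 high, at least 17.6-fold higher (log2 difference 4.75, SE 0.43, adjusted p = 0.000244). Inhba, the activin A subunit, read 6.08, 13.8 and 6.08 against 189.7, 98.9 and 45.6 (log2 difference 3.57, SE 0.63, adjusted p = 0.0122), with 1 of the 2T3 arrays above the limit, and its call was lost without 2T3 C0 replicates 1 and 3, with adjusted p up to 0.0548. Grem1, a secreted BMP antagonist, read 12.6, 157 and 365 against 7350.3, 4158 and 3377 (log2 difference 5.71, SE 0.99, adjusted p = 0.0111). The 2T3 arrays of Grem1 spread widely, yet every MLO-Y4 array lay far above them; the call was lost without MLO-Y4 high replicate 1, with adjusted p up to 0.0517. Leaving out 1 array, the difference ran from 4.28 (without 2T3 C0 replicate 1) to 6.78 (without 2T3 C0 replicate 3) for Grem1 and from 4.59 (without 2T3 C0 replicate 1) to 6.15 (without 2T3 C0 replicate 2) for Eng. Eng, the TGF-beta co-receptor endoglin, read 6.08, 52.2 and 23.8 against 927, 626 and 1063 (log2 difference 5.44, SE 0.71, adjusted p = 0.00235). The Eng call was lost without the arrays numbered 1 (adjusted p = 0.0536). Eng is also an endothelial gene, and the endothelial markers above were not called.

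In the list of p53 targets and cell cycle arrest genes, 3 of 21 measured rose and none fell, beside 2.31% of all spots called higher and 1.05% lower, with a median of 0.32 (0.00 to 0.70 over the 3 scalings). Cdkn1a, the cyclin kinase inhibitor p21, read 69.8, 43.2 and 61.5 in 2T3 C0 and 2772, 904 and 1351 in MLO-Y4 high (log2 difference 4.72, SE 0.43, adjusted p = 0.000244). Mdm2, the ubiquitin ligase that degrades p53, read 91.1, 109.8 and 42.2 against 913, 922 and 699 (log2 difference 3.48, SE 0.39, adjusted p = 0.000871). Gas2, an actin- and microtubule-binding protein of growth-arrested cells, read 6.08, 13.8 and 6.08 against 226, 91.7 and 142 (log2 difference 4.16, SE 0.52, adjusted p = 0.00193), with 1 of the 2T3 arrays above the limit. The groups did not overlap for these genes, and the calls held in every fit without 1 array. Both lines carry T antigen, which binds p53, and its own level was not analysed here.

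Cell cycle and DNA replication genes held 3 weak falls. Of 48 measured, 3 fell and none rose, beside 1.05% of all spots called lower and 2.31% higher. A difference below 0 was found in 38 of the 48 and in 2541 of all 5030 spots. The median of the list was -0.79 (-0.48 to -1.25 over the 3 scalings). Mcm5, a subunit of the replicative helicase, read 299, 167 and 221 in 2T3 C0 and 76.4, 24.2 and 42.7 in MLO-Y4 high (log2 difference -2.38, SE 0.47, adjusted p = 0.022). Cdc25c, a phosphatase that drives entry into mitosis, read 150.4, 132 and 91.6 against 16.2, 16.8 and 37.2 (log2 difference -2.50, SE 0.50, adjusted p = 0.0225). Pola2, a subunit of the primase complex, read 205, 250.2 and 123 against 45.1, 58 and 53 (log2 difference -1.84, SE 0.40, adjusted p = 0.0323). Each gene's groups stood apart, with 2T3 C0 higher. The calls depended on single arrays: Mcm5 was lost without 2T3 C0 replicates 1 and 3 and MLO-Y4 high replicates 2 and 3, with adjusted p up to 0.0753; Cdc25c was lost without 2T3 C0 replicates 1 and 2 and MLO-Y4 high replicates 1 and 2, with adjusted p up to 0.0813; and Pola2 was lost without 2T3 C0 replicates 1 and 2 and MLO-Y4 high replicates 1, 2 and 3, with adjusted p up to 0.123. With equal medians no cell cycle gene was called lower and 1 was called higher, and with the block medians removed Mcm5 (adjusted p = 0.0713) and Pola2 (adjusted p = 0.0558) were lost. Ccnd2, cyclin D2, read 9.5, 70.4 and 55.4 against 306, 195 and 303 and did not pass (difference 2.98, SE 0.75, adjusted p = 0.0668).

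Wnt signalling, which drives osteoblast formation, held the largest fall. Of 37 measured genes, 2 fell and none rose, beside 1.05% of all spots called lower and 2.31% higher, and the median was 0.00 (-0.37 to 0.14 over the 3 scalings). Sfrp2, a secreted protein that binds Wnt ligands, read 3437, 2730 and 2419 in 2T3 C0 and 11.8, 6.08 and 9.92 in MLO-Y4 high, at least 129.8-fold lower (log2 difference -8.31, SE 0.51, adjusted p = 2.64e-05). All 3 MLO-Y4 arrays were below the limit. The spot lies in block N, and with the block medians removed its adjusted p was 1.05e-05. Wnt10b, a ligand that favours bone over fat, read 51.3, 36.5 and 28.3 against the floor on all 3 MLO-Y4 arrays, at least 1.72-fold lower (adjusted p = 0.00248). Lrp5, a Wnt co-receptor, read 113, 77.7 and 106 against 28.7, 11.3 and 14.1 and did not pass (adjusted p = 0.0796), nor did Dkk2, a secreted modulator (87.5, 113 and 78.1 against 11.8, 33.1 and 37.2, adjusted p = 0.139).

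Among 54 homeobox and patterning factors 2 fell and none rose (3 and 1 with the replicate block, 1 and 1 without the arrays numbered 1), beside 1.05% of all spots called lower and 2.31% higher, and the median was -0.05 (-0.39 to 0.05 over the 3 scalings). Six2, a homeobox factor of head and kidney mesenchyme, read 704, 462 and 503 in 2T3 C0 and 11.8, 20.5 and 19.2 in MLO-Y4 high (log2 difference -5.04, SE 0.50, adjusted p = 0.000389). Dlx2, a factor of jaw patterning, read 512, 869 and 449 against 129, 111 and 108 (log2 difference -2.34, SE 0.42, adjusted p = 0.013), and its call was lost without 2T3 C0 replicate 2 and MLO-Y4 high replicate 3, with adjusted p up to 0.0582 and was lost with equal medians (adjusted p = 0.191). Meis2 read 45.8, 38.3 and 49.7 against 6.08, 6.08 and 21.2 and did not pass (adjusted p = 0.0989). Mab21l2, a developmental gene outside that list, read 149, 77.7 and 43.2 against the floor on all MLO-Y4 arrays, at least 3.64-fold lower (adjusted p = 0.00582). Hoxc10, which the list leaves out and which was named after its values were seen, rose from 9.5, 6.08 and 22 to 287, 210.4 and 508 (log2 difference 4.85, SE 0.64, adjusted p = 0.00235), and its difference ran from 4.43 (without 2T3 C0 replicate 2) to 5.45 (without 2T3 C0 replicate 3). For Hoxc10, 1 of the 2T3 arrays was above the limit, and the call was lost without the arrays numbered 1 (adjusted p = 0.093).

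Cytoskeleton genes moved both ways. Of 33 actin and cell process genes, 1 rose (Dstn, above) and 3 fell (1 and 1 where only the 6 arrays were fitted), beside 2.31% of all spots called higher and 1.05% lower, with a median of -0.17 that turned to 0.45 with equal medians. Tmsb4x, thymosin beta 4, which sequesters actin monomers, read 193, 188 and 141 in 2T3 C0 and 24.1, 24.2 and 21.2 in MLO-Y4 high (log2 difference -2.90, SE 0.38, adjusted p = 0.00232). Fscn1, fascin, which bundles filaments in cell protrusions, read 447, 701 and 138 against 26.4, 42.7 and 6.33 (log2 difference -4.19, SE 0.89, adjusted p = 0.0303); the call was lost without 2T3 C0 replicates 1 and 2 and MLO-Y4 high replicates 1 and 3, with adjusted p up to 0.109, and was lost with equal medians (adjusted p = 0.0527). Evl, which speeds filament growth, read 341, 306 and 187 against 47.8, 13.3 and 6.08 (log2 difference -4.10, SE 0.85, adjusted p = 0.0263), and the call was lost without 2T3 C0 replicates 1, 2 and 3 and MLO-Y4 high replicates 2 and 3, with adjusted p up to 0.09. MLO-Y4 high replicate 3 was the lowest of its group for these 3 genes, and no group overlapped. Leaving out 1 array, the difference ran from -4.95 (without MLO-Y4 high replicate 3) to -3.37 (without 2T3 C0 replicate 3) for Fscn1 and from -4.81 (without MLO-Y4 high replicate 3) to -3.40 (without MLO-Y4 high replicate 1) for Evl. Acta2, the smooth muscle actin of contractile fibroblasts, read 20655, 12436 and 14662 against 1596, 1786 and 2170 (log2 difference -3.08, SE 0.31, adjusted p = 0.00041). All 3 2T3 arrays were bright and well above the MLO-Y4 arrays. The call was lost with equal medians (adjusted p = 0.222) while the difference kept its sign.

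Matrix genes moved in both directions. Of 46 collagens and matrix proteins, 3 rose and 1 fell (4 and 3 with the replicate block, 2 and 0 where only the 6 arrays were fitted), beside 2.31% of all spots called higher and 1.05% lower, and the median of -0.16 turned to 0.12 with equal medians. Lama5, a laminin chain of basement membranes, read 6.08, 13.8 and 6.08 in 2T3 C0 and 336, 122 and 251 in MLO-Y4 high (log2 difference 4.77, SE 0.51, adjusted p = 0.00062), with 1 of the 2T3 arrays above the limit. Fbln1, fibulin-1, was at the floor in 2T3 C0 and read 183, 168 and 95.5, at least 15.3-fold higher (adjusted p = 0.00621). Thbs1, thrombospondin, read 69.8, 216 and 185 against 1664, 1279.6 and 644 (log2 difference 2.98, SE 0.60, adjusted p = 0.0228), and the call was lost without 2T3 C0 replicates 1 and 3 and MLO-Y4 high replicates 1 and 2, with adjusted p up to 0.0849. Mfap5, a protein of elastic microfibrils, fell from 1054, 608 and 189 to 45.1, 18.4 and 6.08 (log2 difference -4.85, SE 0.95, adjusted p = 0.021), and the call was lost without 2T3 C0 replicates 1 and 2 and MLO-Y4 high replicates 2 and 3, with adjusted p up to 0.0787. The Mfap5 difference ran from -5.63 (without MLO-Y4 high replicate 3) to -4.09 (without 2T3 C0 replicate 3), yet the lowest 2T3 array exceeded the highest MLO-Y4 array. Of 42 integrins, cadherins and adhesion genes, 1 fell and none rose (3 rose with the replicate block). The fall was Gpc6, a glypican that binds growth factors, from 436, 223 and 138 to 6.08, 6.08 and 14.1, at least 10.9-fold (adjusted p = 0.00215). Of 36 matrix proteases and inhibitors, 3 rose and none fell (5 rose with the replicate block, and 2 where only the 6 arrays were fitted). Adam23, a metalloprotease relative without protease activity, read 10.4, 6.08 and 9.5 against 1054, 602 and 429.5 (log2 difference 6.26, SE 0.60, adjusted p = 0.000306), Plat, tissue plasminogen activator, 51.3, 22.8 and 16.8 against 215, 162 and 190.2 (adjusted p = 0.00751), and Cst3, the protease inhibitor cystatin C, 1652, 1596 and 1261 against 7752, 4366 and 7350.3 (adjusted p = 0.0104). For Adam23, 1 of the 2T3 arrays was above the limit. Of 13 gap and tight junction genes none was called; the members with the smallest p, Cldn2, Gja3, Tjp3 and Cldn4, had adjusted p from 0.684 to 0.927, and all but Cldn2 were above the limit on at most 2 arrays of a group.

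The counts that follow stand beside 2.31% of all spots called higher and 1.05% called lower. Of 41 antioxidant and detoxification genes, 4 rose and none fell (1 rose where only the 6 arrays were fitted): Hmox1, the haem-degrading enzyme (247, 396 and 418 against 2209, 1949 and 3170.1, log2 difference 2.80, SE 0.36, adjusted p = 0.00215), Aldh3a1, an aldehyde dehydrogenase (18.4, 9.17 and 7 against 86.2, 87.8 and 156, adjusted p = 0.00446), Sod3, the extracellular superoxide dismutase (15.1, 6.08 and 20.5 against 116, 35.9 and 60.3), and Gstt1, a glutathione transferase (60.0, 29.2 and 30.3 against 223, 125 and 151). With equal medians the Sod3 and Gstt1 calls were lost (adjusted p = 0.0864 and 0.0751). The Sod3 call was lost without 2T3 C0 replicates 1 and 2 and MLO-Y4 high replicates 1 and 3, with adjusted p up to 0.124. The Gstt1 call was lost without 2T3 C0 replicates 2 and 3 and MLO-Y4 high replicates 1, 2 and 3, with adjusted p up to 0.15. Of 13 circadian clock genes, 1 fell and none rose (2 fell with the replicate block). Dbp, a clock-driven transcription factor, read 649, 219.6 and 279 in 2T3 C0 and 6.83, 6.08 and 6.33 in MLO-Y4 high, at least 15.7-fold lower (log2 difference -5.74, SE 0.56, adjusted p = 0.000389), and the time of harvest is not given in the labels. Pparg, the factor that commits cells to fat, fell from 342, 146 and 109 to 34.6, 8.33 and 16.3, at least 8.07-fold (adjusted p = 0.0222); its spot lies in block P, its call was lost with the block medians removed (adjusted p = 0.083) and with equal medians (adjusted p = 0.0715), and was lost without 2T3 C0 replicates 1 and 2 and MLO-Y4 high replicates 2 and 3, with adjusted p up to 0.0815. Of 32 ribosomal protein genes, 1 fell, Rpl7a (1425, 781 and 994 against 437, 328 and 190.2), and the list's median of -0.71 turned to 0.31 with equal medians. The Rpl7a call was lost without 2T3 C0 replicates 1, 2 and 3 and MLO-Y4 high replicates 2 and 3, with adjusted p up to 0.105, and was also lost with equal medians (adjusted p = 0.651), with detected-spot scaling (adjusted p = 0.0591) and with the block medians removed (adjusted p = 0.0546). Of 10 sterol and fatty acid genes 1 rose, Dhcr7 of cholesterol synthesis (32.2, 28.3 and 38.2 against 149.7, 92.5 and 102), and its call was lost whichever of the 6 arrays was left out, with adjusted p from 0.0588 to 0.118, and was lost with equal medians (adjusted p = 0.0629), detected-spot scaling (adjusted p = 0.114) and block medians removed (adjusted p = 0.107). With the replicate block 1 gene of that list rose and 1 fell. None of 21 heat shock and endoplasmic reticulum stress genes was called (1 rose with the replicate block).

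With members that one line showed only below the limit set to their bound, the list medians were 0.61 for chemokines and acute-phase genes, 1.57 for interferon-induced genes, 1.57 for class I genes, 0.58 for the growth factor families, 0.00 for the BMP pathway, -0.55 for the cell cycle and 0.00 for adipocyte markers.

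**Figure D4:**
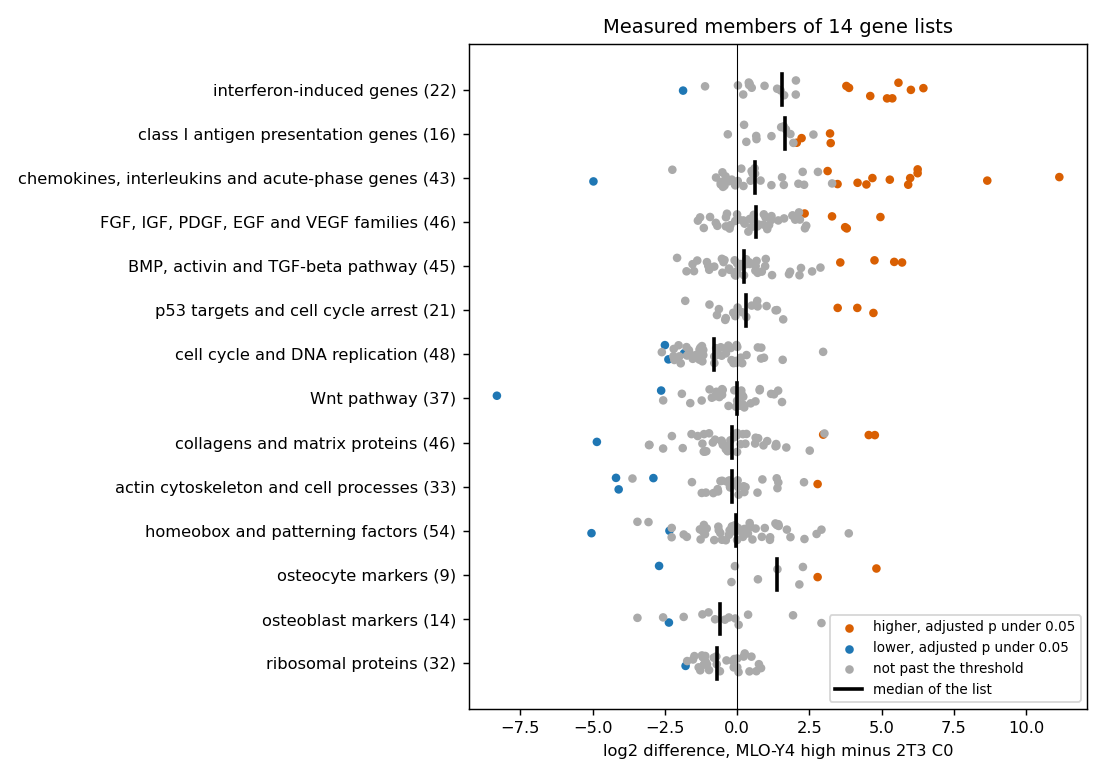
Log2 difference (MLO-Y4 high minus 2T3 C0) of every measured member of 14 gene lists, with the number of members in parentheses; orange points were called higher, blue called lower, grey neither, and black bars are list medians. The interferon (1.57), class I (1.65) and osteocyte (1.40) medians lie to the right of 0 and the cell cycle median (-0.79) to the left.

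The remaining large changes fall in none of the lists. Ampd3, an AMP deaminase, read 19.5, 9.17 and 10.4 in 2T3 C0 and 875, 706 and 336 in MLO-Y4 high (log2 difference 5.59, SE 0.51, adjusted p = 0.000244). Among falls, Polr1c, a subunit of RNA polymerases I and III, read 141, 109 and 133 against 21.6, 11.3 and 6.08 (log2 difference -3.47, SE 0.54, adjusted p = 0.00625), and Hs6st2, which sulphates heparan chains, read 104, 98.4 and 27.7 against the floor on all MLO-Y4 arrays, at least 3.01-fold lower (adjusted p = 0.00739). These calls held in every fit without 1 array. Without 1 array, the difference ran from -4.14 (without 2T3 C0 replicate 1) to -3.06 (without 2T3 C0 replicate 3) for Hs6st2, from -5.11 (without MLO-Y4 high replicate 1) to -3.87 (without 2T3 C0 replicate 1) for Ubr1 and from -4.98 (without MLO-Y4 high replicate 1) to -3.10 (without MLO-Y4 high replicate 2) for Mag. Ubr1, a ubiquitin ligase, read 145, 324 and 749 against 6.08, 28.7 and 16.3, and its call was lost without 2T3 C0 replicates 1, 2 and 3 and MLO-Y4 high replicates 1 and 3, with adjusted p up to 0.127; it was lost with equal medians (adjusted p = 0.0565). Mag, a myelin glycoprotein, read 377, 413 and 335 against 6.08, 84.9 and 21.2, and its call was lost without 2T3 C0 replicates 1, 2 and 3 and MLO-Y4 high replicates 1 and 3, with adjusted p up to 0.129; it was lost with equal medians (adjusted p = 0.0963) and with the block medians removed (adjusted p = 0.0532). Hebp1, a haem-binding protein, read 167, 99.4 and 58.1 against 9.58, 10.3 and 8.25, at least 4.53-fold lower, and its call was lost without 2T3 C0 replicates 1 and 2 and MLO-Y4 high replicate 3, with adjusted p up to 0.0582. Large rises beyond those 15 were not all named. Among those outside the lists, picked after their values were seen, were Cd24a (log2 difference 4.84, adjusted p = 0.000282) and Cx3cr1 (4.60, above). Others were Raet1d (4.36, adjusted p = 0.0252), Gbp2b (4.34, adjusted p = 0.00793) and Bhmt (4.33, adjusted p = 0.000861).

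The same line difference was read at low density, on the other 6 arrays. Among them 2T3 low replicate 3 had a summed signal of 212491, against 1515444 and 1371501 for replicates 1 and 2, and 2T3 low replicate 1 had Spearman correlations of 0.71 with the other arrays of its group, which had 0.87 with each other. There, 198 spots were called (3.94%), and 101 were called at both densities, all with the same sign. These are 59.8% of the calls in dense culture and 51.0% of those at low density. Of the 169 spots called in dense culture, 167 had the same sign at low density, and for 147 the arrays of the 2 lines did not overlap there, on the same side. The 4 groups are different arrays, but same-numbered MLO-Y4 arrays at the 2 densities varied together, as did those of 2T3 C0 and MLO-Y4 low. Both comparisons also come from 1 fit, with the same SE for a spot in each. The 2 comparisons are therefore not fully separate, and a spot with a small SE can pass in both more easily. Saa3 differed by 11.39 (SE 0.60) at low density and 11.15 in dense culture, Ccl7 by 7.97 and 8.66, Cdkn1a by 4.06 and 4.72, and Sfrp2 by -6.59 and -8.31. The exceptions in sign were Irf8, at 0.56 (SE 0.39), and Omd, at 0.10 (SE 0.52), both close to the limit. Of the 116 rises, 85 were also called at low density, and of the 53 falls, 16. Without 2T3 low replicate 1, 159 spots were called at low density and 85 of them were among the 169; without 2T3 low replicate 3, 115 were called and 76 were among the 169, all with the same sign.

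Whether a line difference changed with density was tested by the difference of the 2 differences. No spot passed at an adjusted p under 0.05. In the limma fit 145 had an unadjusted p under 0.05, fewer than the 251.5 expected if no spot changed. Such a count does not show that the line differences were the same at both densities. How large a change this test could have found was not examined. The count of calls was also 0 in each alternative fit that could give it. Dbp, 1 of the 5 genes with the smallest p in its direction, differed by -5.74 in dense culture and -2.28 at low density (difference of differences -3.45, SE 0.80, unadjusted p = 0.00149, adjusted p = 1). In 2T3 low Dbp read 84.2, 64.6 and 37.2, below every 2T3 C0 array. Mab21l2 read 6.08, 21.2 and 6.08 in 2T3 low (difference of differences -3.31, SE 0.80, adjusted p = 1). Isg15 read 396, 12.4 and 42.2 in 2T3 low and 933, 684 and 949.6 in MLO-Y4 low, with 2T3 low replicate 1 far above the other 2, and its low-density difference of 3.84 (SE 0.97) did not pass (adjusted p = 0.0624). Gbp2, Usp18 and Ifit3 had lower values in MLO-Y4 low than in MLO-Y4 high (162, 226 and 268 for Gbp2, 127, 138 and 76.5 for Usp18 and 156, 64.6 and 41.3 for Ifit3) and were called at both densities. The adjusted p of their difference of differences was 1 for each.

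**Figure D5:**
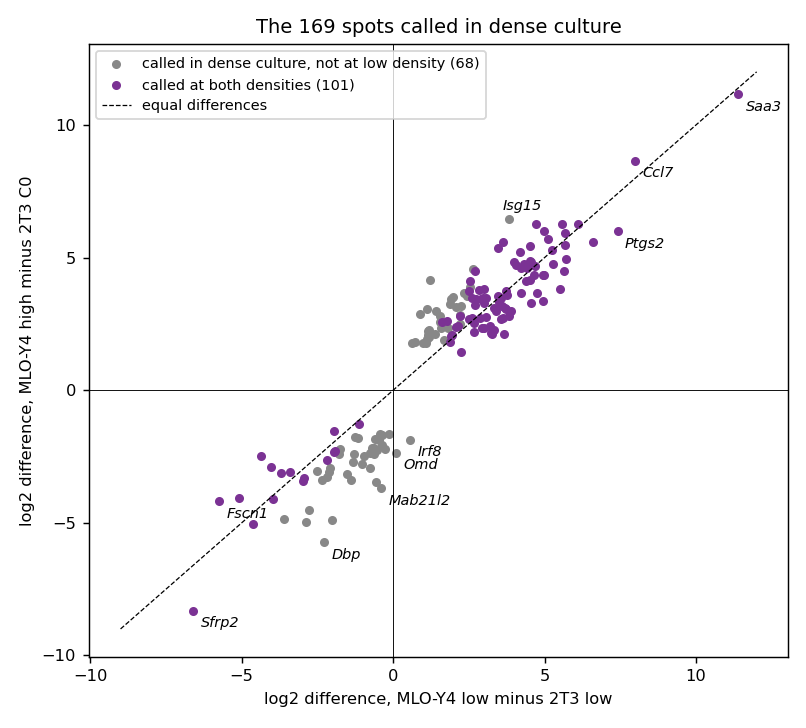
For the 169 spots called in dense culture, the log2 difference between lines there (vertical) against that at low density (horizontal), 1 point a spot; purple points were called at both densities (101), grey points in dense culture and not at low density (68), and the dashed line marks equal differences. All but Irf8 and Omd keep their sign.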

How the data were processed

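The 12 arrays were analysed, 3 for each of 4 groups named in the array titles. The deposited intensity values, 5030 spots an array, are linear and background-subtracted, since some lie below 0; how the authors scanned or scaled them is not given in the sources used here. The number of arrays limits the precision. Intensities were quantile normalised with limma 3.58.1 in R 4.3.3, in place of the equal medians of an earlier account of these data, because array medians lay near background. Values were floored at the 25th percentile, put on the log2 scale and fitted with 4 group means over all 12 arrays (8 residual degrees of freedom), with eBayes and Benjamini-Hochberg adjustment over 5030 spots, two-sided, threshold 0.05. A gene with several spots is represented by its brightest.

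Same-numbered MLO-Y4 high and 2T3 C0 arrays deviated from their group means together (r 0.53, 0.31 and 0.37 over spots), as did MLO-Y4 low and high arrays, but not those of 2T3 low; the number was therefore also fitted as a block over the other 9 arrays.

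Named genes are the 15 largest rises and falls that were called, did not overlap and kept their sign under 3 scalings, the 4 members with the lowest p in each list (fewer in short lists), the 5 smallest p in each direction for the difference of differences, a few fixed bone markers and the control genes. The members and lists were chosen with earlier results of these data known. On simulated arrays the fit recovered only part of the planted changes, from 14 of 50 at 4-fold to 41 of 50 at 32-fold. Of its 123 calls there, 16 were false, more than its threshold allows. Promoters are RefSeq's, build GRCm38.p6, and their motif matches are descriptions.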

Additional observations from a re-analysis of the deposited data

How the results depend on the processing

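Fitting only the 6 arrays compared gave 95 calls (82 shared with the 169), and leaving out 1 of the 6 arrays gave 103 to 146, the fewest without 2T3 C0 replicate 2 (103), 2T3 C0 replicate 3 (107) and MLO-Y4 high replicate 3 (107). With the replicate number as a block for the 3 groups it paired, 259 spots were called, and with the replicate block over all 12 arrays 235 (165 shared). Equal medians gave 139, detected-spot scaling 191, a floor at the 40th percentile 175, an added constant without a floor 187, a filter on dim spots 217 of 2695, an intensity trend 143, block medians removed 169 (142 shared) and no arrays numbered 1 114 (75 shared). Without 2T3 low replicate 1 there were 186 calls and without 2T3 low replicate 3 158. The difference of differences had 0 calls throughout, and the fit of 6 arrays cannot give it. The block over 9 arrays, the fits without arrays numbered 1 or a 2T3 low array and the removal of block medians were chosen after seeing the data.

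No named gene that was called changed sign. Uncalled named genes that did were Rps26 (0.22), Rpl29 (0.34) and Fdft1 (0.28) with equal medians; Ibsp (-0.19), Mef2a (-0.31) and Prkcq (-0.00038) with detected-spot scaling; Myf6 (-0.018) with the higher floor; Tjp3 (0.080) and Mef2a (-0.044) with block medians removed; and Gja3 (0.17), Cldn4 (-0.077) and Pecam1 (-0.24) without arrays numbered 1. Leaving out 1 array, the difference ran from -2.02 to 0.058 for Emcn, -2.10 to 0.17 for Bglap, -0.57 to 0.035 for Kcnab3, -0.69 to 0.75 for Ibsp, -0.044 to 0.45 for Mef2a, -0.045 to 0.94 for Hba-a1, -0.33 to 1.21 for Cldn4, -0.20 to 1.19 for Phex, -0.19 to 1.40 for Cnn1 and -0.41 to 1.97 for Pecam1. The cause of these moves was not tested. Signal limits the dim side: 629 spots were above the detection limit on none of the 6 arrays, and 43 of the 169 calls had 1 line above it on no array.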

Other observations

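Slc7a2, an arginine transporter, was found by searching the whole array. It was the only gene whose lines did not overlap at either density and switched sides between densities. In dense culture it read 41.3, 15.2 and 10.4 in 2T3 C0 and 8.25, 8.33 and 6.08 in MLO-Y4 high, and at low density it was at the floor on all 3 2T3 arrays and read 21, 11.3 and 23.5 in MLO-Y4 low. The line difference was -1.32 (SE 0.50) in dense culture and 1.54 (SE 0.50) at low density, and the difference of differences of -2.87 (SE 0.70) did not pass in the limma fit (unadjusted p = 0.00215, adjusted p = 1). The 2T3 C0 levels were above the detection limit, and all 3 MLO-Y4 high levels were below it. At low density every level was below the limit except 23.5, in MLO-Y4 low replicate 3. A level below the limit is only a bound, so the switch of sides rests on that array and is not established.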
